A study of Mus musculus with 6 samples.

Results

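Expression was read for 9 genes of the complement system, C3, C4b, C1ra, C1s1, Cfb, Serping1, Cd55, Cd59a and C3ar1. The RNA sequencing was of cells given as vascular smooth muscle cells. Such cells form the middle layer of arteries and set their tone. The genes were chosen by symbol, with earlier results of these data known, and all 9 were found among the 25939 genes listed. The cells had been isolated from mouse aorta and grown in culture. The 3 TMAO libraries come from cells treated for 48 h with trimethylamine N-oxide (TMAO), which the liver forms by oxidising a gut-bacterial product, and the 3 Control libraries from control cells. The labels give no strain, genotype, age or dose, and they do not say whether the libraries of a group came from separate animals or cultures, so p-values measure only the spread between these libraries, which may be technical. The comparison asks how TMAO alters the RNA of these cells.

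Complement is a cascade of plasma proteins that marks surfaces for removal and can open pores in membranes. In the classical pathway C1q binds a target and activates the proteases C1r and C1s, which cleave C4 and C2. In the alternative pathway factor B supplies the protease. All routes meet at C3, whose cleavage releases the peptide C3a and leaves C3b on the surface, and soluble and membrane-bound inhibitors hold the cascade in check on the body's own cells. The liver makes most of the plasma proteins, and cells of the vessel wall can make several of them too.

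Values are in FPKM, which scales fragments by exon length and by library total, so that levels can be compared between genes. The totals implied by the FPKM values were 14991252 to 16806728 reads per library, and 1 read in 1 kb of exon was worth 0.0595 to 0.0667 FPKM. Of 11062 genes tested with limma on log2(FPKM + 1), 20 (0.181%) passed an adjusted p of 0.05, 8 of them higher (0.0723%) and 12 lower (0.108%) after TMAO. Log2 fold changes of this fit are differences on log2(FPKM + 1), a scale that understates the change of a low gene. Smooth muscle actin (Acta2) stood at 487 ± 2.79 FPKM (SD, n = 3) in Control, and of the other smooth muscle markers Myl9 stood at 99.1, Smtn at 4.39, Lmod1 at 2.22 and Des at 1.11 FPKM. The remaining 3 of the 8 markers, Tagln, Cnn1 and Myh11, were below 1 FPKM, at 0.851, 0.702 and 0.0978 FPKM in Control. Of the adventitial fibroblast markers, Ly6a, Pdgfra and Dcn stood at 415, 26.5 and 20.3 FPKM in Control, and Pi16 at 0.102 FPKM. The identity of the cells was not tested. Fewer cells of a type and less RNA per cell cannot be told apart in these bulk libraries.

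None of the complement genes passed the threshold after TMAO. C3, the central component, stood lower in all 3 TMAO libraries than in any Control library, with a mean difference of -35.9%. Serping1, which codes for the C1 inhibitor, and C3ar1, which codes for the receptor of C3a, stood higher in all 3 TMAO libraries, with mean differences of 12.8% and 12.5%. C1ra, C1s1, Cd55 and Cd59a overlapped between the groups, and C4b and Cfb were too low to be tested. Of the 7 tested genes 0 passed over all genes with limma and 2, C3 and Serping1, had an unadjusted p below 0.05, where 13.1% of all tested genes did. The groups did not overlap for 3 of the 7, against 18.7% of all tested genes (12.4% with TMAO above and 6.23% with TMAO below). As the genes were chosen with earlier results of these data known, these shares cannot show them to be unusual. The fitted difference was above 0 for 3 of the 7 and below 0 for 4, against 6638 and 4424 of all 11062 tested genes. Their median log2 fold change of -0.11 stands beside 0.02 over all tested genes.

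**Figure D1:**
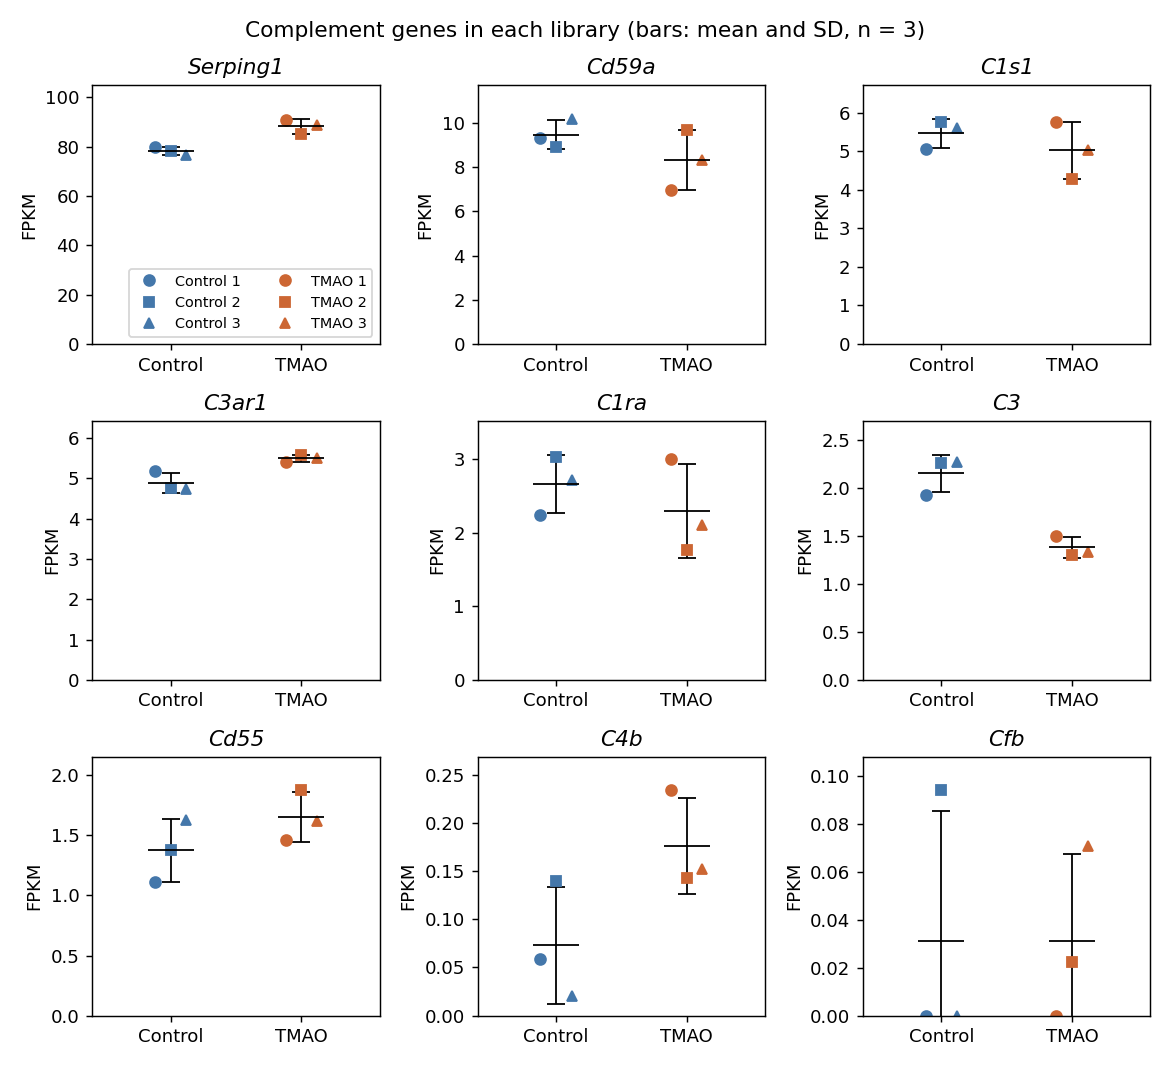
Level in FPKM of the 9 complement genes in the 3 Control and 3 TMAO libraries, one panel per gene with an axis from 0. Points are libraries, the wide bar is the mean and the whiskers are 1 SD (n = 3). The TMAO points of C3 lie below every Control point and those of Serping1 and C3ar1 lie above, and Cfb is at 0 in 3 of 6 libraries.

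The genes differed far more from each other than between treatments. Serping1 was the most abundant, at 83.3 FPKM over the 6 libraries, higher than 93.5% of the tested genes and 73.8% to 78.9% of the summed level of all 9. Cd59a followed at 8.90 FPKM, then C1s1 at 5.25 FPKM, C3ar1 at 5.20 FPKM, C1ra at 2.48 FPKM, C3 at 1.77 FPKM and Cd55 at 1.51 FPKM. C4b at 0.125 FPKM and Cfb at 0.0312 FPKM came last. Over the 6 libraries the ranges of C1s1 and C3ar1 overlapped, as did those of C1ra and C3, of C3 and Cd55, and of C4b and Cfb. The other neighbours in this order did not overlap. Within each library C1ra was above C3 and C4b above Cfb. The order of C1s1 and C3ar1, and that of C3 and Cd55, changed between libraries.

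The proteases of the C1 complex come first in the classical pathway. C1ra (ENSMUSG00000055172, chromosome 6, 124512405 to 124523443, plus strand of mm10), which codes for the C1r protease, stood at 2.23, 3.03 and 2.71 FPKM in Control 1 to 3 and at 3.00, 1.77 and 2.10 FPKM in TMAO 1 to 3. C1s1 (ENSMUSG00000038521, chromosome 6, 124530345 to 124542359, minus strand), which codes for C1s, the protease that C1r activates, stood at 5.04, 5.75 and 5.61 FPKM in Control and at 5.76, 4.29 and 5.03 FPKM in TMAO. For both genes TMAO 1 was as high as the highest Control libraries and TMAO 2 was the lowest of all 6. The groups overlapped, with a log2 fold change of -0.16 ± 0.14 (SE) for C1ra (95% interval -0.48 to 0.15, limma adjusted p = 0.679) and of -0.11 ± 0.093 for C1s1 (95% interval -0.31 to 0.10, limma adjusted p = 0.681). Both values turned on single libraries: C1ra was at -0.05 without TMAO 2, -0.09 without Control 2, -0.25 without Control 1 and -0.31 without TMAO 1, and C1s1 at -0.02 without TMAO 2 and -0.19 without TMAO 1.

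These 2 neighbouring genes followed each other from library to library. On the scale log2(FPKM + 1), Pearson's r was 0.973 over the 6 libraries (exact permutation p = 0.00278, adjusted p = 0.0292 over 21 pairs of tested genes), and Spearman's rho was 0.943 (exact permutation p = 0.0167, adjusted p = 0.175). Without the 2 libraries farthest from the median of C1ra, r was 0.986. Over the 6 libraries r was higher for C1ra with Qsox1 (0.997) and for C1s1 with Ganab (0.982), each the highest of 3746 genes searched. A high r is therefore not particular to this pair. Of the other 20 pairs only C3 and C3ar1 also had an adjusted p of 0.0292 for Pearson's r (exact permutation test), but their libraries fall into separate groups by treatment, so the relation cannot be tested and no pooled r is given. The level of C1s1 was 2.07 ± 0.180 times that of C1ra in Control and 2.25 ± 0.284 times in TMAO (SD, n = 3). The labels give no batch, and 3 libraries per group are too few to test the relation within a group. Both genes have close copies. Of the 50-base stretches in C1ra transcripts 50.8% also occur in transcripts of another gene, most of them in C1rb, and of those in C1s1 transcripts 35.1% do, so reads could be split or lost and the levels are uncertain. The copies themselves were near 0, with C1rb at 0.0980 FPKM in Control 3 and no read in the other 5 libraries, and C1s2 at 0.0894 FPKM or less in every library. A gene on the opposite strand, Gm16567, covers 18.4% of the exon bases of C1s1.

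The promoter windows of the pair are shown because the 2 genes varied together. They run from 250 bases before the RefSeq start to 50 bases after it, in build GRCm38.p6, at chr6:124512371-124512670 on the plus strand for C1ra and chr6:124542310-124542609 on the minus strand for C1s1. Capitals mark matches, on either strand, to 6 short motifs: TTGCNNAA for C/EBP factors, TTCNNNGAA for STAT factors (the GAS motif), the interferon-response motif ISRE, the NF-kB motif, TGANTCA for AP-1 and the TATA box TATAAA.
C1ra: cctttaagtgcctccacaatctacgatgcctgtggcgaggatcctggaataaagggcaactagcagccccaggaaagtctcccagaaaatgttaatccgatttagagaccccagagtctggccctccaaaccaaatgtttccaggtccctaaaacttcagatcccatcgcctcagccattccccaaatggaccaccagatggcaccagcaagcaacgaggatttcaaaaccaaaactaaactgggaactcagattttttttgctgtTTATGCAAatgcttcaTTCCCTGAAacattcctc
C1s1: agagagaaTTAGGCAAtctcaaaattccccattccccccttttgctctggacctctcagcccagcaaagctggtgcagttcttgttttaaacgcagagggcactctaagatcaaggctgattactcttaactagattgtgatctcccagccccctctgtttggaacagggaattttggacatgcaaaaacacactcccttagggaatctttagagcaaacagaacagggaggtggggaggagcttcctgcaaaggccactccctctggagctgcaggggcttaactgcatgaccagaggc
The C1ra window held a C/EBP match 17 to 24 bases into the transcript and a GAS match at 33 to 41 bases. Most of the C1ra window lies inside the gene as GENCODE annotates it, since the start used here, from RefSeq, is further downstream. The C1s1 window held a C/EBP match 242 to 235 bases before the start. Another RefSeq window of C1s1, at chr6:124542272-124542571, held none of the 6 motifs. Of 32851 windows of the same length in the RefSeq table, 10.8% held the C/EBP motif and 8.30% the GAS motif. A match is a run of letters and was not tested as a binding site.

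C3 (ENSMUSG00000024164, chromosome 17, 57203970 to 57228136, minus strand), on which all routes converge, stood at 1.93, 2.26 and 2.28 FPKM in Control 1 to 3 and at 1.51, 1.30 and 1.34 FPKM in TMAO 1 to 3. These values rest on 149, 175 and 197 reads in Control and 128, 107 and 103 reads in TMAO. All 3 TMAO libraries were below all 3 Control libraries. The mean went from 2.16 ± 0.196 to 1.38 ± 0.109 FPKM (SD, n = 3), 1.56 times as high in Control as in TMAO. On the scale log2(FPKM + 1) the difference was -0.40 ± 0.085 (SE), with a 95% interval of -0.59 to -0.22. The limma adjusted p was 0.0982 (unadjusted p = 6.48e-04), which put C3 at place 73 of the 11062 tested genes. Voom on recovered reads called 0.89% of genes. In that fit C3 passed at a limma adjusted p = 0.0229 (log2 fold change -0.64, without the added 1 FPKM). Over the 14 alternatives its limma adjusted p ranged from 0.0229 to 0.398 and its log2 fold change was below 0 in 14 of 14. No 50-base stretch of its transcripts occurs in another annotated gene.

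C4b and Cfb, whose products join the convertases that cleave C3 in the classical and alternative pathways, were barely detected. C4b (ENSMUSG00000073418, chromosome 17, 34728380 to 34743882, minus strand) had 5, 12 and 2 reads in Control 1 to 3 and 22, 13 and 13 reads in TMAO 1 to 3. In FPKM these were 0.0585, 0.140 and 0.0209 in Control and 0.234, 0.143 and 0.152 in TMAO. Every TMAO library was above every Control library, but TMAO 2 exceeded Control 2 by only 1 read. An exact permutation test (two-sided, n = 3 per group) gave p = 0.1, the smallest it can give. Among 6291 genes with a mean of 0.05 to 0.5 FPKM, 9.2% had all TMAO libraries above all Control libraries and 2.62% had them below, with a median difference of 11.8%. Of the 50-base stretches in C4b transcripts 34.6% also occur in its copy C4a, which had 0.0409 and 0.0785 FPKM, so the level of C4b is uncertain.

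Cfb (ENSMUSG00000090231, chromosome 17, 34856374 to 34862518, minus strand) had no reads in Control 1, Control 3 and TMAO 1, and 4, 1 and 3 reads in Control 2, TMAO 2 and TMAO 3. A count of 0 allows up to 3 reads, which in this gene are 0.0632 to 0.0708 FPKM, for counting error only. The annotated gene Gm20547 on the same strand covers 79.5% of the exon bases of Cfb, so reads of Cfb could have been left out as ambiguous. C2, its neighbour and the classical-pathway counterpart of Cfb, stood at 0.103 and 0.110 FPKM and shares 42.8% of its exon bases in the same way, and it was named after its values were seen. No difference was detectable in Cfb at this depth.

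Serping1 (ENSMUSG00000023224, chromosome 2, 84765387 to 84775444, minus strand), whose product inactivates C1r and C1s, stood at 80.0, 78.2 and 76.7 FPKM in Control 1 to 3 and at 91.0, 85.0 and 89.0 FPKM in TMAO 1 to 3. The groups did not overlap, and the spread within each was small. The mean went from 78.3 ± 1.67 to 88.3 ± 3.02 FPKM (SD, n = 3), a difference of 0.17 ± 0.044 (SE) in log2 units. Its 95% interval ran from 0.07 to 0.27, and the limma adjusted p was 0.152 (unadjusted p = 0.00255). Its adjusted p ranged from 0.09 to 0.428 over 15 alternatives with limma, and the log2 fold change was above 0 in 15 of 15. At 2738 to 3495 reads per library it had the most reads of the 9 genes.

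The inhibitor stood well above its targets in every library. Serping1 was 14.4 ± 1.29 times the level of C1s1 in Control and 17.8 ± 2.03 times in TMAO (SD, n = 3). Serping1 was also set against C3, the central component, with ratios of 41.5, 34.6 and 33.7 in Control. In TMAO they were 60.4, 65.2 and 66.6, above every Control value. That separation follows from Serping1 lying higher and C3 lower in every TMAO library, and it is no further result. These ratios are of RNA levels per length and were not tested.

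Neither of the membrane-bound inhibitors among the 9 genes passed the threshold, and the groups overlapped for both. Cd59a (ENSMUSG00000032679, chromosome 2, 104095801 to 104115354, plus strand), whose product blocks the assembly of the membrane attack complex, stood at 9.30, 8.91 and 10.2 FPKM in Control and at 6.98, 9.69 and 8.32 FPKM in TMAO. The low mean in TMAO rests mainly on TMAO 1: the log2 fold change was -0.17 ± 0.10 (SE, 95% interval -0.40 to 0.05, limma adjusted p = 0.517) with it and -0.07 without it. Without TMAO 2, the highest library of that group, it was -0.28 (limma adjusted p = 0.2). Its copy Cd59b stood at 0.847 and 0.643 FPKM in the 2 groups, and 3.87% of the 50-base stretches of Cd59a occur in it.

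Cd55 (ENSMUSG00000026399, chromosome 1, 130439027 to 130462744, minus strand), which codes for decay-accelerating factor, an inhibitor that takes the C3 convertases apart, stood at 1.11, 1.38 and 1.63 FPKM in Control and at 1.46, 1.87 and 1.62 FPKM in TMAO. The groups overlapped, with Control 3 above TMAO 1 and TMAO 3. The log2 fold change was 0.16 ± 0.10 (SE, 95% interval -0.07 to 0.39, limma adjusted p = 0.556), and it was 0.08 without Control 1 and 0.10 without TMAO 2. Its copy Cd55b had reads in TMAO 2 alone, at 0.0374 FPKM.

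C3ar1 (ENSMUSG00000040552, chromosome 6, 122847138 to 122856161, minus strand), which codes for the G protein-coupled receptor of C3a, stood at 5.18, 4.76 and 4.73 FPKM in Control 1 to 3 and at 5.41, 5.59 and 5.50 FPKM in TMAO 1 to 3. The lowest TMAO library lay just above the highest Control library. The log2 fold change was 0.14 ± 0.066 (SE), with a 95% interval of -0.0026 to 0.29 and a limma adjusted p = 0.386 (unadjusted p = 0.0535). The ratio of the receptor to C3 was 2.69, 2.11 and 2.07 in Control. In TMAO it was 3.59, 4.29 and 4.12, which was not tested. This separation follows from C3ar1 lying higher and C3 lower in every TMAO library, and it is no further result.

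Windows around the starts of C3 and C3ar1 are shown because these are the ligand and receptor genes whose groups did not overlap, in opposite directions. They lie at chr17:57228087-57228386 for C3 and chr6:122856108-122856407 for C3ar1, both on the minus strand, and capitals mark the same 6 motifs.
C3: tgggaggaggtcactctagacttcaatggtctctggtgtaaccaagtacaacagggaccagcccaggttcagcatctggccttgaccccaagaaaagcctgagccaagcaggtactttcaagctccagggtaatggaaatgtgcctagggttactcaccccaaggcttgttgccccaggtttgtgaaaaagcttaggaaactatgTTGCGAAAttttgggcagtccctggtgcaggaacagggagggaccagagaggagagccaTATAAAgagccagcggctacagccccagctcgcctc
C3ar1: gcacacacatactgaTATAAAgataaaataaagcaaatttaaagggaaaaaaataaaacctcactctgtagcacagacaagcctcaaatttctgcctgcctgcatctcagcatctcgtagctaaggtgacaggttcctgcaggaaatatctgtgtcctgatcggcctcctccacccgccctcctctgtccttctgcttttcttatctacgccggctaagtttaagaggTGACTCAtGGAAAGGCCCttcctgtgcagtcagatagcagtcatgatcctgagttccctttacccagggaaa
The C3 window held a C/EBP match 45 to 38 bases before the start and a TATA match at bases 15 to 20 of the transcript. The C3ar1 window held a TATA match 235 to 230 bases before the start, an AP-1 match at 22 to 16 bases and an NF-kB match at 14 to 5 bases, and no C/EBP match. The TATA motif occurred in 13.6% of all windows, the AP-1 motif in 7.81% and the NF-kB motif in 5.56%. RefSeq windows were found for 6 of the 9 genes. Of the other two, Cd59a held an ISRE match 187 to 178 bases before the start, a motif in 3.44% of all windows, and Cd55 held no match. Serping1, C4b and Cfb were not matched.

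Transcription factors known to act on complement genes were read beside them. Cebpb, which codes for a C/EBP factor known to drive C3, fell after TMAO. It stood at 4.83, 6.27 and 5.46 FPKM in Control 1 to 3 and at 2.66, 3.08 and 3.24 FPKM in TMAO 1 to 3, with no overlap. The log2 fold change was -0.70 ± 0.095 (SE, limma adjusted p = 0.0186), a call kept in 10 of 14 alternatives and lost with a filter of 0.1 FPKM (limma adjusted p = 0.0543), with no filter (0.262), without Control replicate 3 (0.0729) and without TMAO replicate 1 (0.0638). The libraries fall into separate groups for both Cebpb and C3, so no correlation is given, and a link between the 2 genes was not tested. A gene on the opposite strand, Tmem189, covers 20.7% of the exon bases of Cebpb, and the strand setting of the counting is not given.

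**Figure D2:**
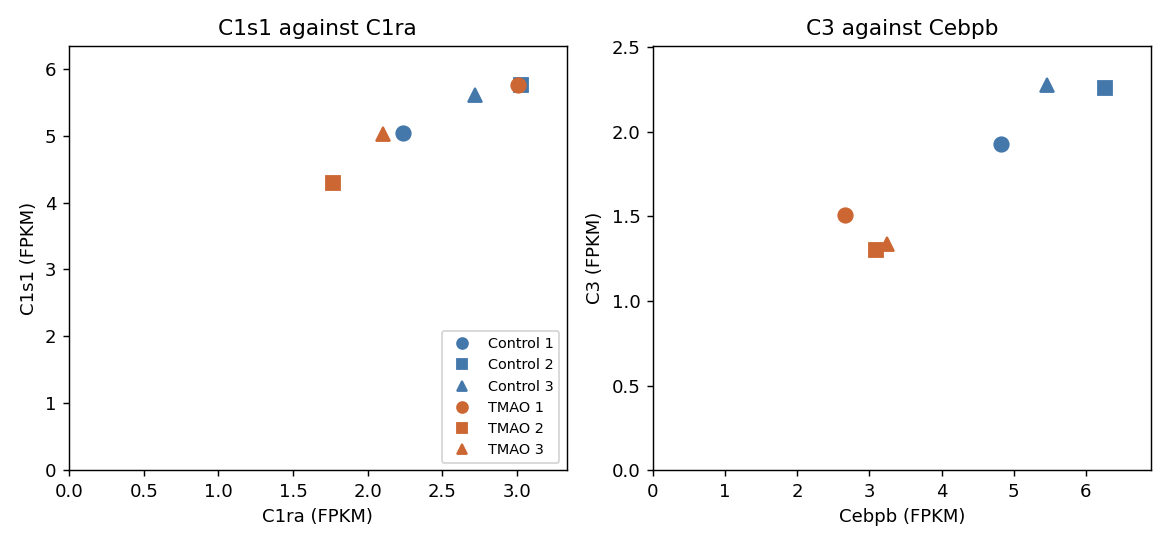
Left, C1s1 against C1ra, and right, C3 against Cebpb, both in FPKM on axes from 0, with 1 point per library and the shape giving the replicate number. C1ra and C1s1 follow a line shared by the 2 groups (r = 0.973, computed on log2(FPKM + 1)), whereas in the right panel the TMAO and Control libraries form separate clusters.

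Of the 8 factors 7 were tested and 1 passed, with a median log2 difference of 0.00. The related Cebpd stood at 28.2 FPKM in both groups (log2 fold change 0.00, limma adjusted p = 0.999). Irf1, a factor of the interferon response, differed by 0.12 in log2 units (limma adjusted p = 0.589). The NF-kB subunit genes Nfkb1 and Rela differed by 0.03 and -0.08 (limma adjusted p = 0.939 and 0.746), and Stat3 by -0.05 (limma adjusted p = 0.778). Ciita, the class II transactivator, was listed at 0.00905 and 0.00868 FPKM and not tested.

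The rest of the pathway was taken from a list of 55 complement genes, of which 45 are in the tables and 18 were tested, the 7 above among them. Of the other 11 tested genes 0 passed with limma, with 7 above 0 and 4 below, against 6638 and 4424 of all 11062 tested genes. Their log2 differences had a median of 0.07, against 0.02 over all tested genes. An unadjusted limma p below 0.05 was found for 1 of the 11, where 13.1% of all tested genes had one. That 1 gene is C1rl, which codes for a protease related to C1r, at 1.24 ± 0.191 and 0.916 ± 0.131 FPKM (SD, n = 3; log2 fold change -0.22, limma adjusted p = 0.376), named after its values were seen.

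By level, the membrane lectin gene Colec12 led the list after Serping1, with 30.6 ± 0.423 FPKM among Control and 28.7 ± 2.51 FPKM among TMAO libraries (SD, n = 3; limma adjusted p = 0.567). Cr1l, which codes for Crry, the main membrane inhibitor of C3 convertases in mice, stood at 8.44, 8.02 and 8.42 FPKM in Control and 9.34, 8.65 and 8.67 FPKM in TMAO. Its TMAO libraries lay above the Control libraries by a small margin (log2 fold change 0.09, limma adjusted p = 0.579). The subunit genes of the target-binding protein, C1qb and C1qa, stood at 4.16 ± 1.23 and 2.58 ± 0.664 FPKM in Control and at 4.98 ± 0.678 and 2.78 ± 0.522 FPKM in TMAO (limma adjusted p = 0.674 and 0.871). Masp1, a protease of the lectin pathway, C7, a component of the membrane attack complex, and C4bp, which codes for a soluble C4b-binding protein, differed by -0.12, 0.07 and 0.04 in log2 units (limma adjusted p = 0.567, 0.838 and 0.915).

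**Figure D3:**
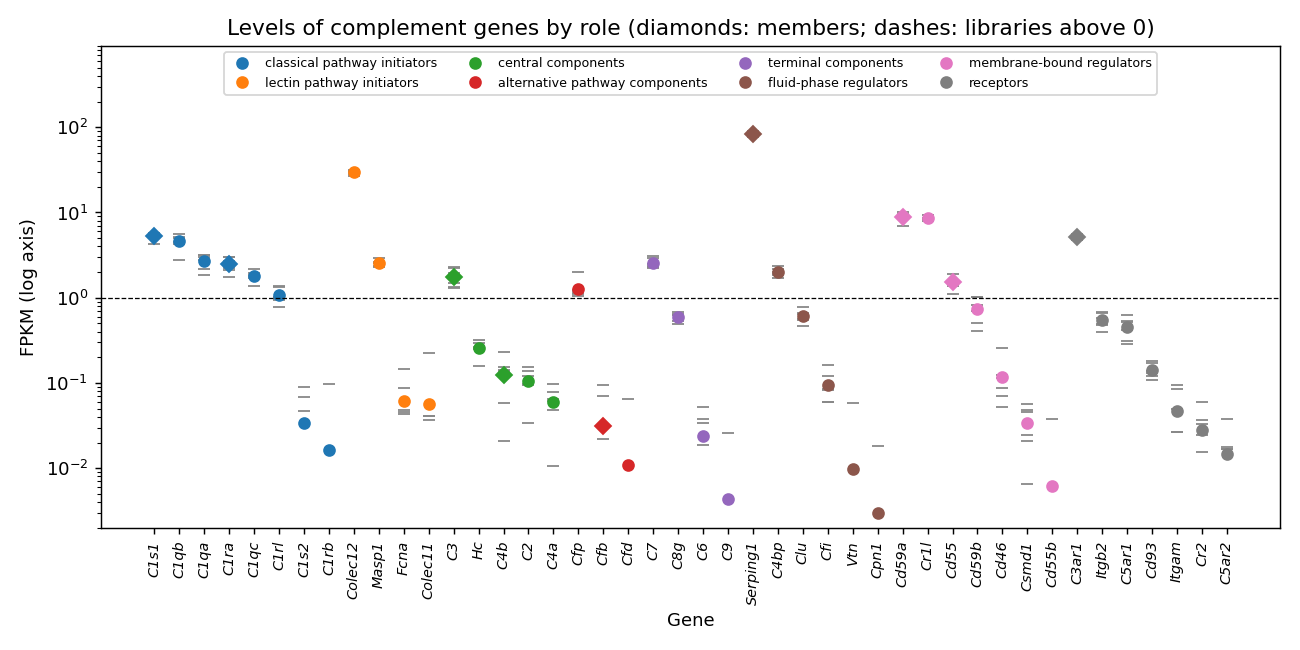
Mean level in FPKM on a log axis of complement genes in the tables, ordered by role and then by level, with diamonds for the 9 members, circles for the rest and grey dashes for libraries above 0. The dashed line is the 1 FPKM used for the filter. Serping1 is the highest, and Cfb, C4b and C2 lie well below the line.

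By role, of the 3 tested membrane-bound regulators Cr1l and Cd55 were above 0 and Cd59a below. The pathway was covered unevenly: of the genes in the tables, 1 of 5 central components, 1 of 3 alternative-pathway components and 1 of 4 terminal components reached the filter. Of 7 receptor genes C3ar1 alone was tested. No gene of any of these roles passed the threshold.

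**Figure D4:**
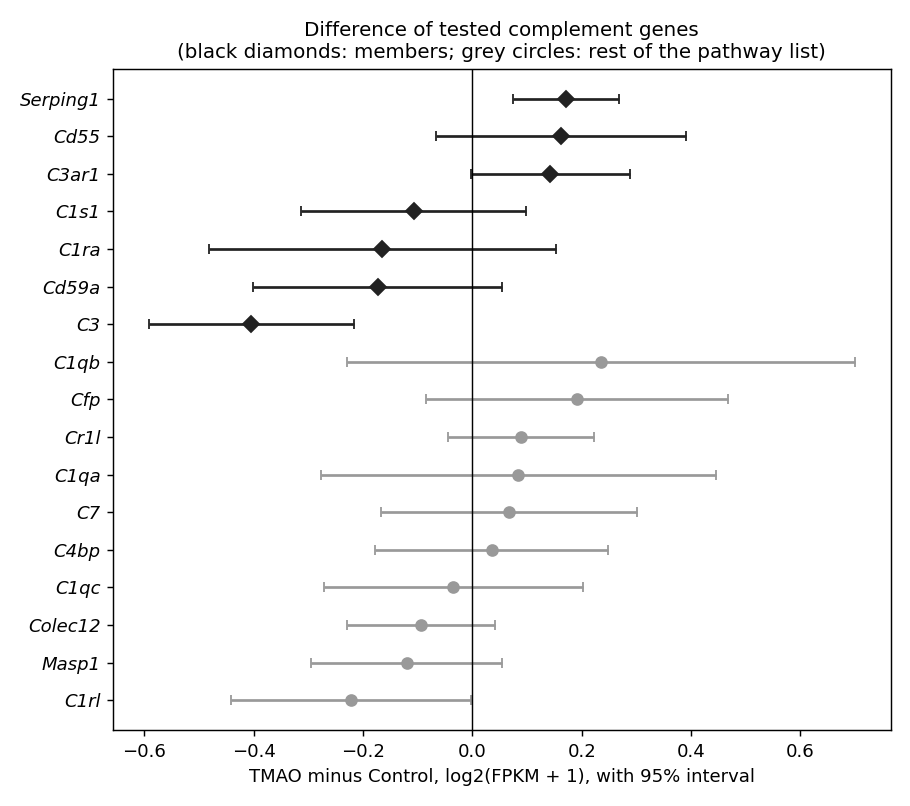
Difference between TMAO and Control on the scale log2(FPKM + 1) for tested complement genes, with the limma 95% interval as a bar. The 7 tested members are black diamonds and the other genes grey circles, and among the members only the intervals of C3 (-0.59 to -0.22) and Serping1 (0.07 to 0.27) exclude 0.

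Some complement genes are typical of macrophages, so markers of other cells were read in the same libraries. Among 8 macrophage markers 6 were below 1 FPKM. The leukocyte genes Ptprc and Itgam stood at 0.0399 and 0.0401 FPKM and at 0.0404 and 0.0536 FPKM. Gm49368 on the same strand covers 68.7% of the exon bases of Itgam, so reads of Itgam could have been left out as ambiguous. Csf1r stood at 0.821 and 0.716 FPKM, Adgre1 at 0.510 and 0.501, Mrc1 at 0.267 and 0.331 and Fcgr1 at 0.135 and 0.112 FPKM. Lyz2 stood at 76.9 and 70.0 FPKM and Cd68 at 4.17 and 4.28 FPKM. The summed level of the list was 74.8 to 91.5 FPKM in Control and 70.9 to 79.4 FPKM in TMAO, most of it from Lyz2. The adventitial fibroblast list summed to 447 to 490 FPKM and 448 to 482 FPKM, with 0 of 7 genes past the threshold. Nearly all of it is Ly6a (415 and 410.0 FPKM), and Pdgfra stood at 26.5 and 23.8 FPKM (limma adjusted p = 0.293, unadjusted p = 0.0217) and Lum at 4.40 and 3.72 FPKM (limma adjusted p = 0.418). The rest of the list was not lower after TMAO. Dcn stood at 20.3 and 21.1 FPKM, Dpt at 6.94 and 7.29, Cd34 at 1.53 in both groups and Pi16 at 0.102 and 0.158 FPKM. The mesothelial list summed to 7.52 to 8.27 FPKM and 7.27 to 8.01 FPKM, and the smooth muscle list to 593 to 597 FPKM and 578 to 596 FPKM, with 0 genes past the threshold in either. Nearly all of the smooth muscle sum is Acta2 (487 and 483 FPKM) and Myl9 (99.1 and 94.7 FPKM). The endothelial list summed to 15.5 to 16.8 FPKM in Control and 12.5 to 13.1 FPKM in TMAO. Nearly all of that sum is Emcn (15.8 ± 0.685 and 12.3 ± 0.192 FPKM (SD, n = 3), limma adjusted p = 0.0504, and below 0.05 in 4 of 15 alternatives), and the other 5 endothelial genes, Pecam1 and Cdh5 among them, were below 1 FPKM. The part of these cells in the levels of C3, C3ar1 or Serping1 was not tested.

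For each tested gene the most similar profile was taken among 3746 genes with a mean of at least 10 FPKM, by Pearson's r of log2(FPKM + 1) over the 6 libraries, as a description. The profile of C3 was closest to that of Tinagl1 (r = 0.992), which stood at 40.7 and 32.9 FPKM in Control and TMAO (log2 fold change -0.30, limma adjusted p = 0.0818). Serping1 was closest to the growth hormone receptor gene Ghr (r = 0.996, at 21.2 and 23.6 FPKM). C3ar1 was closest to Slc25a17 (r = 0.997), C1ra to Qsox1 (0.997), C1s1 to Ganab (0.982), Cd55 to Pcbp4 (0.988) and Cd59a to S100a11 (0.986). Each r is the highest of 3746 over only 6 libraries. For C3, Serping1 and C3ar1 the groups did not overlap, so r also carries the difference between the groups. For these genes it does not show a relation from library to library.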

How the data were processed

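Per the labels' protocols, Trizol was used for RNA extraction, and the poly(A) library kit keeps the strand. The authors deposited 1 table per library with FPKM values, and 1 header spells the unit PKM. The submitters' processing notes list Trimmomatic, HISAT2, Cufflinks, HTSeq and build mm10. Neither the annotation release nor the strand setting of the counting is given there. Groups and replicate numbers come from the titles.

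Exon lengths from GENCODE M21 (same build) turned the FPKM values of 25499 genes, 98.5% of those with a length, into whole reads in all 6 libraries, to within 0.01 reads. A gene needed 1 FPKM or more in 3 or more libraries to enter limma 3.58.1 (trended, robust variance; R 4.3.3) on log2(FPKM + 1), two-sided, with Benjamini-Hochberg adjustment over all genes. On this scale the change of a low gene is understated. The permutation test between groups used scipy 1.17.1, and the correlation test ran over all 720 orders with numpy 2.4.6. The script was tested on simulated data.

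The 9 genes and the gene lists were chosen with earlier results of these data known. The text names all 9, the 8 other list genes with the highest mean, their copies, the 8 transcription factors and the most similar gene of each tested member, apart from some genes that are not reported here. The alternatives changed the scaling (quantile, or median-ratio size factors), the filter (3 others), the pseudocount (0.1), the robust variance (off) or the model (replicate block, or voom on recovered reads), or left out 1 library. Promoter sequences are from RefSeq, GRCm38.p6.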

Additional observations from a re-analysis of the deposited data

How the results depend on the processing

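The count of genes past the threshold, 20, became 0 with no filter (1999 at an unadjusted p below 0.05), 50 with a filter of a mean of 5 FPKM and 97 with voom on recovered reads, and 11 to 56 with leave-one-out fits, when 1 library was left out (11 without Control replicate 3, 12 without TMAO replicate 1, 56 without TMAO replicate 2). The calls split 8 higher and 12 lower, against 7 and 18 with quantile normalization, 12 and 7 with a filter of 0.1 FPKM and 12 and 10 with the replicate block. The count of complement members past the threshold was 0 in every setting except voom on recovered reads, where it was 1 (C3), as it was for the wider complement list; leaving out a library gave 0 to 0 for both. C3, C1ra, C1s1, Serping1, Cd55, Cd59a and C3ar1 kept their direction in all alternatives run. Those that turned were near 0. Nfkb1 was -0.0213 with quantile normalization and -0.03599 to 0.1079 with 1 library left out. Rela was -0.1529 to 0.01407 with 1 library left out. Cebpd was -0.004243 with quantile normalization, -0.02675 with median-ratio size factors, -0.0007753 with voom and -0.0181 to 0.03284 with 1 library left out. C4bp was -0.01284 with quantile normalization and -0.0371 to 0.09055 with 1 library left out, C1qa -0.07186 to 0.2038 and C7 -0.02272 to 0.1564. The causes were not tested. Genes with a mean below 5 FPKM, C3 among them, were not tested with that filter.

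Libraries with the same replicate number did not deviate together (correlations of -0.09, -0.10 and 0.06 over tested genes). With 3 libraries per group this cannot exclude pairing, and the labels do not say whether the numbers pair the libraries. With the replicate block 22 genes passed, 0 of them complement members, and C3 had an adjusted p = 0.187 by limma. At 103 to 197 reads C3 is thinly covered, and C4b and Cfb, at 22 reads or fewer, were not entered into limma.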
